A study of Homo sapiens with 6 samples.

Results

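Epithelial and mesenchymal identity genes were examined in SUM159 breast cancer cells after silencing of spinophilin, a scaffold protein that binds protein phosphatase and actin and has been tied to cell adhesion. A list of 59 genes was used, 34 linked to epithelial identity and 25 to mesenchymal identity, and a gene was included if the array annotation paired its symbol or an older alias with a transcript cluster (PATJ, for example, is also known as INADL). This gave 45 measured genes of the 14884 genes with a symbol, 28 epithelial and 17 mesenchymal, each represented by its brightest transcript cluster over the 6 arrays. The other 14 genes (CDH3, F11R, RAB25, ELF3, SPINT1, SPINT2, FOXC1, FOXC2, CDH2, CDH11, ACTA2, POSTN, WNT5A and WNT5B) were not analysed here.

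Spinophilin-silenced cells stably expressed a short hairpin RNA against spinophilin from lentiviral particles, and control cells stably expressed a scrambled hairpin from the same kind of particles. Both were selected with puromycin and grown in medium with insulin and hydrocortisone, so all groups share the parental line, the selection and the hormone supplement. Expression was measured on Affymetrix Human Gene 2.0 ST arrays, 3 for silenced and 3 for control cells, labelled 1, 2 and 2d in each group. A single hairpin was used, and spinophilin itself was not analysed here, so the silencing was not checked on these arrays. The arrays of a group are described as independent biological replicates, but whether they come from separate transductions is not stated and the label 2d is not explained, so the p-values reflect the spread among these 6 arrays alone. Values are log2 expression after robust multi-chip average normalization (RMA), which brings the arrays to nearly the same distribution of values. Array medians lay between 5.19 and 5.23, and the SD of the difference between any 2 arrays was 0.267 to 0.328 over all 53617 transcript clusters, so no array stood apart. In a bulk RNA sample, a difference in the share of cells that express a gene and a difference in RNA per cell cannot be told apart.

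Epithelial cells are held together by tight junctions, adherens junctions and desmosomes, and their apical and basal faces are set by polarity complexes such as Crumbs. In epithelial-mesenchymal transition, transcription factors of the SNAI, ZEB and TWIST families repress junction and polarity genes, and cells gain vimentin, fibronectin and other matrix products. SNAI and ZEB proteins bind the E-box CAGGTG, and grainyhead-like factors (GRHL) and OVOL factors act as epithelial counterparts. Promoters of 3 polarity and desmosome genes are shown because these E-boxes stand in them and because PATJ and DSP are among the genes with the smallest p below. The sequences are the 250 bases before the gene's start in RefSeq on GRCh38.p14, all on the plus strand, 5′ to 3′, with CAGGTG or its reverse complement CACCTG in capitals.
PATJ, chr1:61742230-61742479: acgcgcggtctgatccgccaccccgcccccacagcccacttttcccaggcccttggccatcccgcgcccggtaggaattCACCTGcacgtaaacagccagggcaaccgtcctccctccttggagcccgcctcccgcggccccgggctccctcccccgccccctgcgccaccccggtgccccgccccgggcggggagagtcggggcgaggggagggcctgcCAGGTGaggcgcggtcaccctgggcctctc
CRB3, chr19:6464021-6464270: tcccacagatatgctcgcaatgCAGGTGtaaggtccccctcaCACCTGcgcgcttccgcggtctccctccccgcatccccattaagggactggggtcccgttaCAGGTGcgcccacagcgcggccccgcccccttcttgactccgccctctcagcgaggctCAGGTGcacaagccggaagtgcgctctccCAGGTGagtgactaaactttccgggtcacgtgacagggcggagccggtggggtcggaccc
DSP, chr6:7541421-7541670: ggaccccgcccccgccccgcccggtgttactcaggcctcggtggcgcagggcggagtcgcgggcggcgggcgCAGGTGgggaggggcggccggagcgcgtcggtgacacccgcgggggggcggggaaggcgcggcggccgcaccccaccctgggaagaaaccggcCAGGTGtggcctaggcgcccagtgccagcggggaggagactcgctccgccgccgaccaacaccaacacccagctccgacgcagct

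The promoter table held 28 of the 45 measured genes, some with several start sites. The E-box was present in 11 of 25 promoters of epithelial genes (44.0%) and in 5 of 30 promoters of mesenchymal genes (16.7%), against 17.5% of all 35116 promoters of the same length. Genes with several start sites weigh more in these shares, TCF4 with 10 promoters and no E-box among them. Counted per gene with at least 1 such promoter, the shares were 10 of 17 epithelial genes (58.8%), 3 of 11 mesenchymal genes (27.3%) and 20.6% of all genes, so the mesenchymal share lay below the background per promoter and above it per gene. Of the promoters printed, CRB3 held 5 E-boxes, PATJ 2 and DSP 2. CLDN1, the other epithelial gene with an unadjusted p under 0.05 from limma, held 0 in its 1 promoter. CRB3 had a log2 difference of only -0.05. The printed promoters were picked partly for their E-boxes, so they do not show how E-boxes and differences relate. The grainyhead motif AACCGGTT, which is its own reverse complement, was present in 0 of the 55 promoters of measured genes and in 0.117% of all promoters. A match of letters does not show that a factor binds there.

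For 41 of the 45 genes the 95% interval of the difference between spinophilin-silenced and control cells included 0, and the other 4 were PATJ and THY1, higher in silenced cells, and CLDN1 and DSP, lower. PATJ, a scaffold of the Crumbs polarity complex at tight junctions, was the only one of the 45 genes with an adjusted p under 0.05 from limma (1 of 45, 2.22%, against 0.205% of all transcript clusters), and it was higher in silenced cells. The list was chosen with earlier results of these data known, so a share that rests on PATJ alone is a description and not support. No mesenchymal gene passed, and 1 of the 17, THY1, had an unadjusted p under 0.05. By the criteria of the study's methods, an unadjusted p under 0.05 with a change of at least 1.5-fold, PATJ was again the only one called among the higher genes, where 0.858% of all transcript clusters were called, and none of the 45 was called among the lower, where 0.470% were. An unadjusted p under 0.05 from limma was reached by 2 of 45 genes higher in silenced cells (4.44%, against a background of 3.86%), which are PATJ and THY1, and by 2 lower (4.44%, against 3.53%), which are CLDN1 and DSP. The shares for the unadjusted p lie near their backgrounds. The silenced arrays did not overlap the control arrays in 3 genes that were higher (PATJ, PKP3 and THY1, 6.67%, background 6.43%) and in 5 that were lower (CLDN1, CGN, DSP, SNAI2 and ZEB2, 11.1%, background 6.27%).

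**Figure D1:**
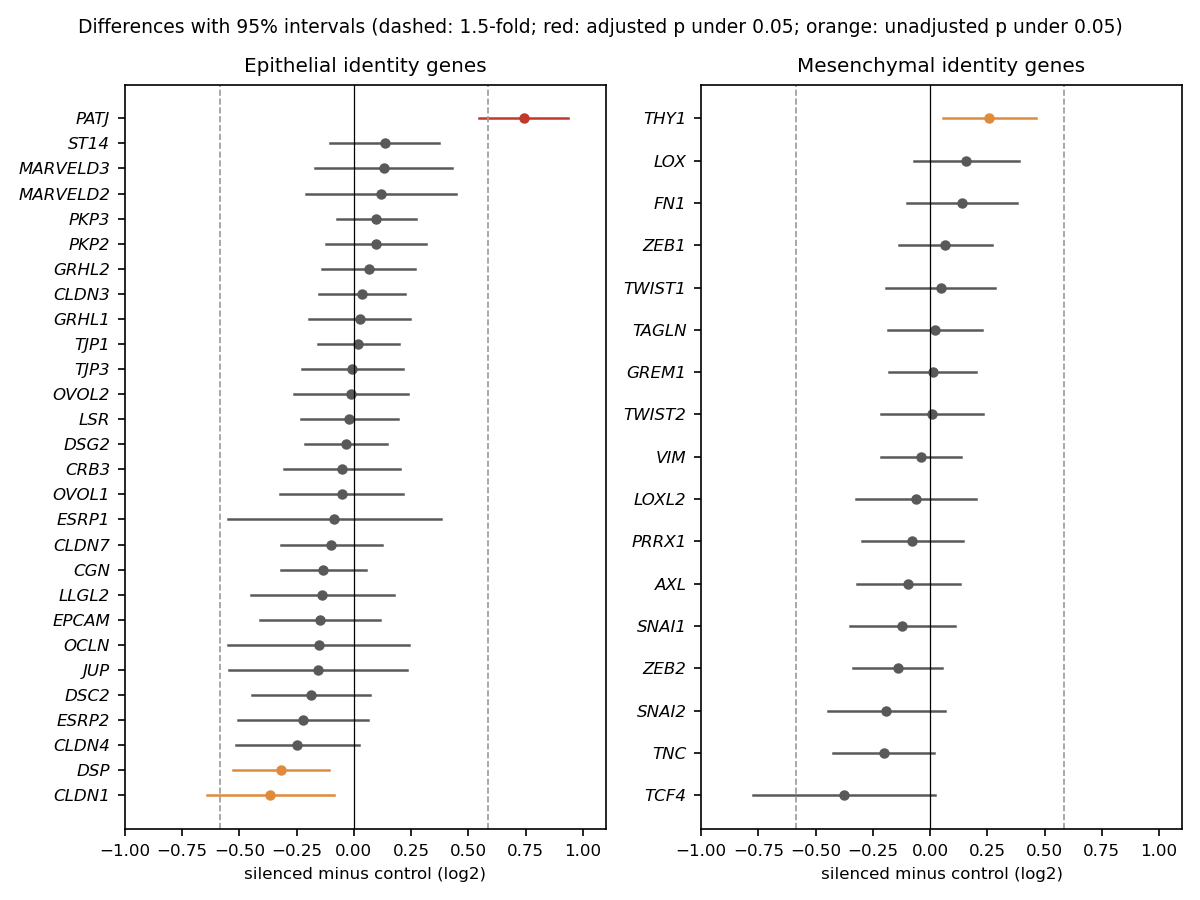
Difference between the mean of 3 silenced and the mean of 3 control arrays (log2, points) with its 95% interval from limma (lines) for 28 epithelial genes on the left and 17 mesenchymal genes on the right; dashed lines mark 1.5-fold, red marks an adjusted p under 0.05 and orange an unadjusted p under 0.05. PATJ lies apart at 0.74, and the other points lie between -0.38 (TCF4) and 0.26 (THY1).

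PATJ gave 7.03, 7.18 and 7.08 on silenced arrays 1, 2 and 2d, against 6.41, 6.32 and 6.33 on control arrays 1, 2 and 2d (log2 expression). The groups did not overlap, and the gap between them was far larger than the spread within either. PATJ averaged 7.09 ± 0.078 in silenced cells and 6.35 ± 0.048 in control cells (SD, n = 3 each), a log2 difference of 0.74 (standard error 0.082) or 1.67-fold, with a 95% interval of 1.46-fold to 1.91-fold (adjusted p = 0.0272 from limma). The control mean lay below 7.06, the 95th percentile of 85 largely silent keratin-associated protein genes on these arrays, and the silenced mean lay close to it, so whether PATJ was above background in control cells is not settled. The call did not hold with any 1 array left out. Without silenced array 1, 2 or 2d the adjusted p from limma was 0.0936, 0.138 and 0.0944, and without control array 1, 2 or 2d it was 0.112, 0.157 and 0.117. The log2 difference in these fits stayed between 0.70 and 0.78. PATJ was also not called with the replicate label as a block (adjusted p = 0.167 from limma), with arrays 2 and 2d averaged (adjusted p = 0.256 from limma), or without moderated variances (adjusted p = 0.216, and 0.649 with the block). A filter at the level of the silent genes removed it.

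The genes next to PATJ on chromosome 1 were read to see whether the difference extends along the chromosome, a comparison chosen after the PATJ value was seen. TM2D1, NFIA and C1orf87, the nearest measured protein-coding genes on one side in RefSeq order, had log2 differences of -0.02, -0.08 and -0.17. L1TD1, KANK4 and USP1 on the other side had -0.02, -0.01 and 0.02. None of the 6 neighbours passed (adjusted p = 0.814 to 0.996 from limma). For TM2D1, the closest on its side, the 95% interval was -0.21 to 0.18, and for L1TD1, the closest on the other, -0.32 to 0.28. The interval of PATJ itself, 0.55 to 0.93, lay above both. C1orf87, L1TD1 and KANK4 had means over all arrays of 3.62, 4.69 and 4.85, below 7.06, the 95th percentile of the silent genes. TM2D1, NFIA and USP1, at 7.08, 7.5 and 10.22, lay above it. For the dim neighbours, a small difference does not show that the RNA was unchanged.

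Other genes of the Crumbs complex were likewise chosen after the PATJ value was seen, and PALS1, also of this complex, was not analysed here. CRB3, the Crumbs protein of epithelia, gave 5.90, 5.88 and 5.66 on silenced arrays and 5.78, 5.80 and 6.01 on control arrays, overlapping groups with a log2 difference of -0.05 (95% interval -0.31 to 0.20). CRB1 and CRB2, its paralogs, had -0.05 and -0.01, and the adaptor genes LIN7A, LIN7B and LIN7C had 0.11, 0.14 and -0.01. The means over all arrays of CRB1, CRB2, CRB3, LIN7A and LIN7B (4.52, 5.88, 5.84, 6.21 and 6.03) lay below 7.06, the 95th percentile of the silent genes. LIN7C, at 9.6, lay above it. For the dim genes, a small difference does not show that the RNA was unchanged. MPDZ, the paralog of PATJ that encodes another scaffold with many PDZ domains, gave 9.53, 9.51 and 9.61 on silenced arrays and 9.15, 9.21 and 9.12 on control arrays. These MPDZ values did not overlap and gave a log2 difference of 0.39 (standard error 0.077, unadjusted p = 0.00141), which did not pass over all transcript clusters (adjusted p = 0.198 from limma). Whether the PATJ and MPDZ probes share signal was not tested.

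**Figure D2:**
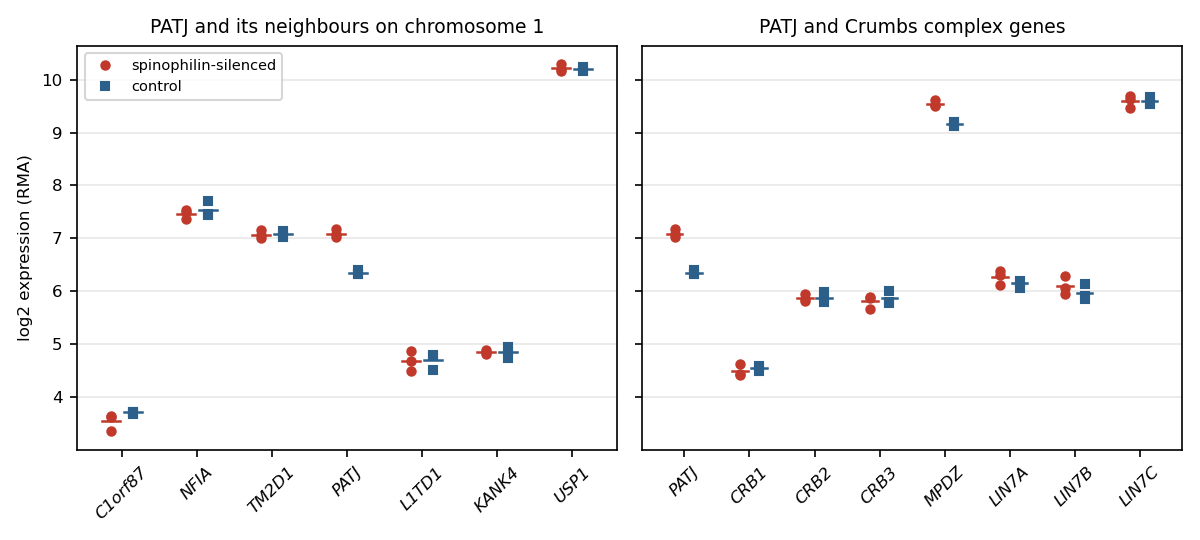
Log2 expression on each array for PATJ with its 3 nearest measured protein-coding genes on each side (left) and with genes of the Crumbs complex and the paralog MPDZ (right); circles are silenced arrays, squares control arrays and bars group means. The groups separate in PATJ (7.09 against 6.35) and MPDZ (9.55 against 9.16), and C1orf87, the other gene without overlap, is lower in silenced cells (3.54 against 3.71).

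Among the tight junction genes, 11 of 12 were measured, none passed over all transcript clusters in limma (1, CLDN1, had an unadjusted p under 0.05), and 7 of the 11 lay below 0 with a median log2 difference of -0.02. CLDN1, the claudin with the largest difference, gave 7.73, 7.60 and 7.95 on silenced arrays, against 8.10, 8.02 and 8.25 on control arrays. Every silenced value of CLDN1 lay below every control value, although silenced array 2d (7.95) came close to control array 2 (8.02). Its log2 difference of -0.36 (95% interval -0.64 to -0.09, unadjusted p = 0.0169) did not pass after adjustment (adjusted p = 0.528 from limma). CLDN4 gave 4.94, 4.70 and 4.69 on silenced and 5.02, 4.87 and 5.17 on control arrays, a difference of -0.25 (95% interval -0.52 to 0.02) with overlapping groups. The claudins CLDN3 and CLDN7 had 0.04 and -0.10.

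TJP1, which encodes the scaffold ZO-1, was tightly measured at 9.77, 9.81 and 9.78 on silenced arrays and 9.82, 9.77 and 9.72 on control arrays, a difference of 0.02 (95% interval -0.16 to 0.20). The cytoplasmic plaque protein gene CGN (cingulin) gave 5.17, 5.22 and 5.17 on silenced arrays, against 5.26, 5.40 and 5.30 on control arrays. The CGN groups did not overlap, by a narrow margin, and its difference of -0.13 had a 95% interval that included 0 (-0.32 to 0.05). OCLN (occludin) was scattered in control cells, at 5.72, 5.03 and 5.33, against 5.17, 5.24 and 5.20 in silenced cells. The tricellular junction genes MARVELD2 and LSR had differences of 0.12 and -0.02, MARVELD3 had 0.13 with 4.71, 5.18 and 4.86 on silenced arrays against 4.75, 4.83 and 4.77 on control arrays, and TJP3 had -0.01.

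All 6 desmosome genes were measured, and none passed over all transcript clusters. DSP, which encodes desmoplakin, the protein that anchors intermediate filaments to desmosomes, gave 6.77, 6.70 and 6.69 on silenced arrays, against 6.97, 6.97 and 7.17 on control arrays. The DSP groups did not overlap, and the difference of -0.32 (standard error 0.090, 95% interval -0.53 to -0.11) reached an unadjusted p of 0.00911 but not the adjusted threshold (adjusted p = 0.443 from limma). PKP3, a plakophilin of the desmosomal plaque, gave 6.48, 6.49 and 6.45 on silenced and 6.33, 6.38 and 6.41 on control arrays. These values did not overlap, but the difference of 0.10 was small and its 95% interval included 0 (-0.08 to 0.27). The desmosomal cadherins DSG2 and DSC2 had -0.03 and -0.19, the plakophilin PKP2 had 0.10, and JUP, the plakoglobin shared by desmosomes and adherens junctions, had -0.16. EPCAM, an adhesion molecule of epithelial cells, gave 4.20, 4.08 and 4.03 on silenced and 4.39, 4.31 and 4.06 on control arrays, overlapping groups with a difference of -0.15 (95% interval -0.41 to 0.11).

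The epithelial transcription factors gave small differences at low levels. GRHL1 and GRHL2 had log2 differences of 0.03 and 0.07, and OVOL1 and OVOL2 had -0.05 and -0.01. Their means over all arrays (4.51, 4.64, 5.03 and 5.08) lay below 7.06, the 95th percentile of the keratin-associated protein genes. Whether these factors were above background is not settled, so the small differences do not show that they were unchanged. A second, dimmer transcript cluster of OVOL1 had a difference of 0.20 (95% interval -0.04 to 0.45) without overlap of the groups, so the transcript clusters of this gene differed in sign and neither passed. ESRP1, a splicing factor that sets epithelial isoforms, had the widest interval of all 45 genes, from -0.55 to 0.38, and its paralog ESRP2 had -0.22 (95% interval -0.50 to 0.06). ST14, the surface protease matriptase, gave 5.19, 5.39 and 5.26 on silenced and 5.01, 5.16 and 5.27 on control arrays, a difference of 0.13 (95% interval -0.11 to 0.37). LLGL2, a polarity gene of the basolateral side, had -0.14.

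**Figure D3:**
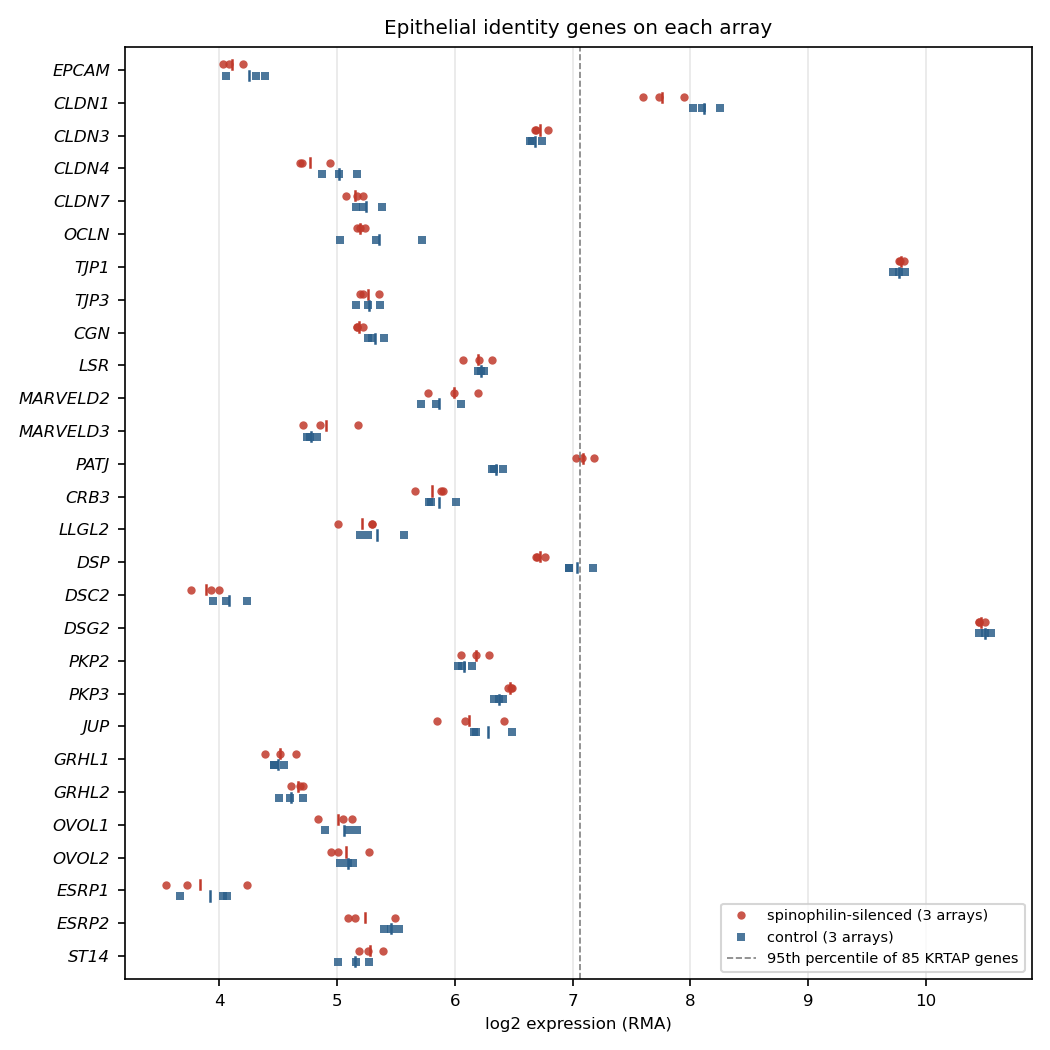
Log2 expression of the 28 epithelial genes on each array, with circles for silenced arrays, squares for control arrays and short bars for group means; the dashed line is the 95th percentile of 85 keratin-associated protein genes (7.06). Only CLDN1, TJP1 and DSG2 have a mean over all arrays above that line, and PATJ has the widest separation of group means (0.74).

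None of the 17 measured mesenchymal genes passed over all transcript clusters, and 8 of them lay above 0 and 9 below. Of the transcription factors, SNAI2 (Slug) gave 10.38, 10.48 and 10.12 on silenced arrays, against 10.55, 10.51 and 10.49 on control arrays. Its silenced values lay below the control values, with array 2d lowest, and the difference of -0.19 had a 95% interval that included 0 (-0.45 to 0.06). ZEB1 gave 8.66, 8.55 and 8.78 on silenced and 8.60, 8.61 and 8.58 on control arrays, a difference of 0.07 (95% interval -0.14 to 0.27), with the control values inside the range of the silenced ones. ZEB2 gave 6.61, 6.50 and 6.65, against 6.67, 6.79 and 6.73, groups that did not overlap by a narrow margin, with a difference of -0.14 (95% interval -0.34 to 0.05).

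TCF4, a basic helix-loop-helix factor also called E2-2, had the lowest difference among the mesenchymal genes, with 6.26, 6.10 and 6.73 on silenced and 6.62, 6.76 and 6.84 on control arrays. Silenced array 2d lay within the control range, the difference was -0.38 (95% interval -0.77 to 0.02), and it did not pass (adjusted p = 0.701 from limma). TWIST1 gave 5.29, 5.18 and 5.11 on silenced and 5.30, 5.09 and 5.05 on control arrays, with a difference of 0.05 (95% interval -0.19 to 0.28). TWIST2, SNAI1 and PRRX1 had differences of 0.01, -0.12 and -0.08.

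VIM, the gene of the intermediate filament vimentin, gave 12.58, 12.52 and 12.57 on silenced arrays, against 12.61, 12.63 and 12.56 on control arrays. These values overlapped and gave a difference of -0.04 (95% interval -0.21 to 0.13), one of the narrowest intervals in the list. The annotation gave VIM 2 further transcript clusters, at means of 10.11 and 11.44, with differences of -0.10 and -0.09. Neither passed, although the groups of the first did not overlap. The strand that each of the 3 transcript clusters reads was not checked, so whether the brightest reports the VIM transcript is not settled. THY1, a surface glycoprotein of fibroblasts, gave 6.57, 6.57 and 6.40 on silenced arrays and 6.30, 6.23 and 6.22 on control arrays. The THY1 groups did not overlap, and the difference of 0.26 (standard error 0.086, 95% interval 0.06 to 0.46, unadjusted p = 0.0189) did not pass after adjustment (adjusted p = 0.548 from limma). TAGLN (transgelin), an actin-binding protein gene, had a difference of 0.02.

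Of the matrix genes, FN1 (fibronectin) gave 11.30, 11.20 and 11.44 on silenced and 11.10, 11.12 and 11.31 on control arrays, a difference of 0.14 (95% interval -0.10 to 0.38) with overlapping groups. TNC (tenascin C) gave 8.84, 8.66 and 8.68 on silenced and 8.84, 8.93 and 9.03 on control arrays, a difference of -0.20 (95% interval -0.42 to 0.02) in which silenced array 1 met the lowest control value. The collagen and elastin crosslinking enzyme gene LOX gave 6.62, 6.77 and 6.64, against 6.49, 6.66 and 6.41, a difference of 0.16 (95% interval -0.07 to 0.39), and its relative LOXL2 had -0.06. Of the signalling genes, AXL, a receptor tyrosine kinase of mesenchymal carcinoma cells, gave 8.57, 8.34 and 8.34 on silenced and 8.52, 8.57 and 8.45 on control arrays, a difference of -0.10 (95% interval -0.32 to 0.13). GREM1, an antagonist of bone morphogenetic proteins, had 0.01.

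**Figure D4:**
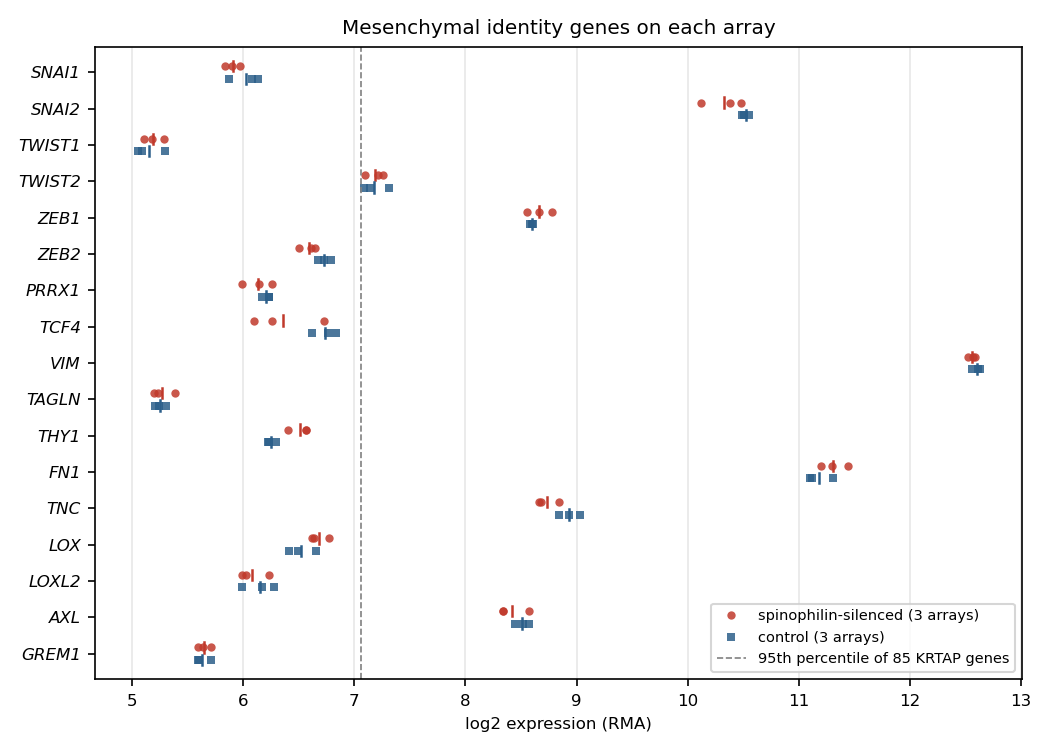
Log2 expression of the 17 mesenchymal genes on each array, with circles for silenced arrays, squares for control arrays and short bars for group means; the dashed line is the 95th percentile of 85 keratin-associated protein genes (7.06). SNAI2, ZEB1, TWIST2, VIM, FN1, TNC and AXL have means above that line, and the largest separation of the group means is that of TCF4 (-0.38).

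The medians of both lists lay near 0, slightly below it. The mean level over the 17 mesenchymal genes was 7.481 to 7.529 on silenced and 7.533 to 7.547 on control arrays, without overlap. Over the 28 epithelial genes it was 5.774 to 5.841 on silenced and 5.82 to 5.88 on control arrays, with overlap. Over all transcript clusters it was 5.417 to 5.437 and 5.419 to 5.429, also with overlap. These mean levels were not tested. The epithelial genes had a median log2 difference of -0.04, with 10 above 0 and 18 below, and the mesenchymal genes had a median of -0.04, against a median of -0.003 over all 53617 transcript clusters. The median size of the difference, regardless of sign, was 0.108 in the epithelial and 0.096 in the mesenchymal genes. It was 0.091 over all transcript clusters. Over the 14884 genes with a symbol, each at its brightest transcript cluster, the median difference was -0.010 and the median size 0.079. The 95% interval included 0 for 25 of 28 epithelial and 16 of 17 mesenchymal genes, and the whole interval lay within 1.5-fold in either direction for 42 of the 45 genes. The exceptions were PATJ, CLDN1 and TCF4. For all 45 genes the interval lay within 2-fold. Only 10 of the 45 genes had a mean above 7.06, the 95th percentile of the silent genes, 3 epithelial and 7 mesenchymal. RMA compresses differences of dim transcripts, so for the other genes a narrow interval does not show that the RNA was unchanged.

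**Figure D5:**
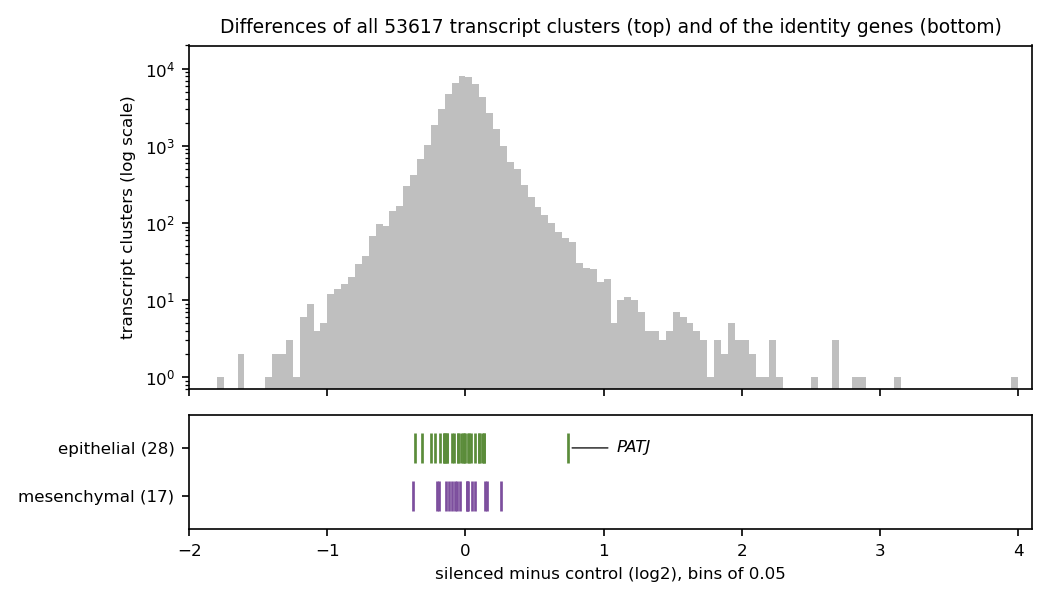
Distribution of the log2 difference, silenced minus control, over all 53617 transcript clusters in bins of 0.05 (top, log scale), and each of the 28 epithelial and 17 mesenchymal genes as a tick (bottom). Apart from PATJ at 0.74, the ticks lie between -0.38 and 0.26. The 95th percentile of the size of the difference over all transcript clusters is 0.381, and TCF4 (-0.38) and CLDN1 (-0.36) lie close to it.

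The level of a transcript cluster depends on its probes as well as on the RNA, so genes were not ordered by level, and their levels were set against 85 keratin-associated protein genes, which are largely silent outside hair follicles. Their 95th percentile was 7.06 on the log2 scale. The mean over all 6 arrays lay above it for 7 of 17 mesenchymal genes (41.2%), for 3 of 28 epithelial genes (10.7%) and for 28.1% of all genes with a symbol. The mesenchymal genes were SNAI2, TWIST2, ZEB1, VIM, FN1, TNC and AXL, and the epithelial genes were CLDN1, TJP1 and DSG2. TWIST2, at a mean of 7.18, was close to the bound and lay below the 99th percentile of the same silent genes (7.51). The other genes named lay above both. EPCAM, at a mean of 4.18, lay below this bound, and VIM, at 12.58, above it. PATJ, at a mean of 7.09 in silenced cells and 6.35 in control cells, lay close to the bound in silenced cells and below it in control cells.

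Related genes on the same arrays gave few further differences, and none of them passed over all transcript clusters. Among 13 measured fibroblast and matrix genes of 36 listed, FBN1, the microfibril protein fibrillin 1, met the criteria of the study's methods, with 6.38, 6.41 and 6.24 on silenced arrays against 7.16, 6.98 and 6.84 on control arrays. The FBN1 groups did not overlap (log2 difference -0.65, standard error 0.11, adjusted p = 0.115 from limma). FBN1 was the 1 gene of 13 called lower by these criteria, against 0.470% of all transcript clusters. At an unadjusted p under 0.05 from limma, 2 of the 13 were higher in silenced cells, CCN2 (0.49) and FSTL1 (0.30). Another 2 of the 13 were lower, FBN1 and DCN (-0.26). Over all transcript clusters the shares were 3.86% higher and 3.53% lower. The adjusted p from limma of CCN2, FSTL1, FBN1 and DCN was 0.510, 0.320, 0.115 and 0.590. None of 4 simple epithelial keratins, 4 basal keratins, 18 other epithelial genes, 23 cadherin, catenin and polarity genes, 14 genes of the TGF-beta and BMP pathway and 18 WNT ligands, receptors and antagonists met either criterion, and each of these lists had at most 1 gene with an unadjusted p under 0.05. Their median log2 differences lay between -0.04 (WNT genes) and 0.09 (simple epithelial keratins).

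Markers of other cells were read in the same way. All 14 luminal mammary markers, genes typical of the luminal line MCF-7 that the study also used, were measured, and none met either criterion, with a median log2 difference of -0.02. On the linear scale their summed level was 1256 to 1359 on silenced and 1280.1 to 1340.4 on control arrays, and 3 of the 14 lay above the bound of the silent genes. Of 8 leukocyte markers 4 were measured, of 7 endothelial markers 5 and of 9 basal mammary markers 3, and none met either criterion. PECAM1, an endothelial adhesion gene, had a difference of 0.46 (95% interval 0.12 to 0.80, adjusted p = 0.509 from limma), and CD68, a macrophage marker, had -0.30 (95% interval -0.50 to -0.10, adjusted p = 0.456 from limma). The other endothelial markers did not share one sign, with VWF at -0.10, TIE1 at -0.07, CLDN5 at 0.12 and ERG at 0.13, nor did the other leukocyte markers, with CD14 at -0.08, LYZ at 0.13 and CSF1R at 0.10. Their part in the PATJ result was not tested.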

How the data were processed

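Expression of SUM159 cells was measured on 3 arrays of spinophilin-silenced and 3 of control cells. Log2 expression values were deposited, produced by the authors with RMA in Partek 6.6 (background correction, quantile normalization, median polish, log transformation). The log base is not named and was taken as 2 from the range of values. RMA removes any difference in total RNA and compresses differences of dim transcripts.

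Of 53617 transcript clusters, 16098 had 1 symbol, 0 several and 37519 none here, with symbols updated through RefSeq gene identifiers. A gene was represented by its brightest transcript cluster. A linear model without covariates was fitted to every transcript cluster (limma 3.58.1, R 4.3.3) and tested two-sided with moderated variances, with Benjamini-Hochberg adjustment over all transcript clusters and a threshold of 0.05. An exact permutation test with 3 arrays against 3 cannot go below 0.1. On simulated data with the real means and variances, limma recovered 19.4% of 67 transcript clusters changed 1.5-fold, 83.6% of 67 changed 2-fold and 98.5% of 66 changed 4-fold, with 4 false calls among 53617.

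The genes and lists were chosen with earlier results of these data known. Values on each array are given for genes at an unadjusted p under 0.05, for the 3 largest rises and falls in each group of genes and for 8 defining genes, one of which, CDH2, was not analysed here. Other genes with values on each array, among them those with groups that do not overlap, were added after their values were seen. Olfactory receptor genes had been planned as silent genes, but only 1 had a symbol here, and keratin-associated protein genes took their place once this was known. The alternatives concerned the replicate label, arrays 2 and 2d, filters, normalization, variances and leaving out each array.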

Additional observations from a re-analysis of the deposited data

How the results depend on the processing

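The number of arrays limits every call. The count of 110 transcript clusters was 15 to 48 when 1 array was left out, 12 with arrays 2 and 2d averaged, 223 with arrays 2 and 2d as a random block (estimated correlation -0.24) and 0 in the unmoderated test with or without the block, and the replicate block gave 40. The deviations of same-numbered arrays correlated at 0.012, 1.57e-05 and 0.093, and those of differently numbered arrays at -0.068 to 0.062. Deviations from the mean of so few arrays cannot decide whether the numbers pair the samples, so pairing is not settled. PATJ was called in 8 of 18 alternatives and not with 1 array left out, with the replicate block (adjusted p = 0.167 from limma), with averaging (0.256) or in the unmoderated test (0.216, and 0.649 with the block), which gives 0 genes called there. The methods name an analysis of variance with a further factor that they do not identify. Whether this factor is the replicate label is not stated, so which of these unmoderated tests is nearer to it is not known. No other gene of the list was called in any alternative. A filter at the level of the silent genes, chosen after seeing the data, removed PATJ, which leaves 0 genes called and 0 by the methods' criteria.

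The mesenchymal median of -0.0398 was -0.0072 with arrays 2 and 2d averaged, -0.0622 with the mean of all transcript clusters of a gene, and -0.0501 to -0.0119 with 1 array left out. With the median of all transcript clusters as bound, 34 of 45 genes lay above it instead of 10. The filter at the olfactory receptor genes was not run.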
